A study of Rattus norvegicus with 24 samples.

Results

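The genes described here are those of mitosis and chromosome segregation, followed in cultured rat cells of the oligodendrocyte lineage. They are a list of 54 symbols that share what their products do, chosen with earlier results of these data known. Of these, 53 could be tied to a gene identifier in the count files, out of 32883 genes counted. This used the identifier and symbol pairs that accompany the study (Ccnb2 had no pair). The 53 genes lie on 16 chromosomes. All 53 pairs stand among genes that the study had listed as lower in DMSO-treated oligodendrocytes (OLs) than in their precursors, so a low level in those OLs was part of how a member got its name. That contrast is therefore given for the members as a description with no test, and the comparisons of DTG with DMSO share its DMSO libraries.

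When a cell divides, CDK1 bound to a cyclin starts mitosis, condensin packs the chromosomes, kinesin motors and microtubule-binding proteins build the spindle, and the kinetochore ties each chromosome to it. The spindle checkpoint then holds the anaphase-promoting complex (APC/C) back until all chromosomes are attached, after which separase cuts the link between sister chromatids and the cell is pinched apart. Oligodendrocyte precursor cells (OPCs) divide in response to growth factors and leave the cell cycle as they become myelin-forming OLs.

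Primary rat OPCs were kept for 24 h in a medium with fibroblast growth factor, platelet-derived growth factor and neurotrophin 3, and OLs were the same kind of culture after a further 72 h in a differentiation medium. At each stage the cells were untreated, given DMSO at 0.04% as the vehicle, or given 8 µM dolutegravir (DTG), an HIV integrase inhibitor, with DTG or DMSO present through both media in the OL cultures. Each of the 6 groups held 4 RNA-seq libraries from independent litters. Libraries with the same replicate number were taken here as 1 litter, which the study does not state. The study asked how DTG acts on the transcriptome at both stages. Gene counts ran from 13241279 to 18499994 per library, and spike-in transcripts took 1.06 to 7.19% of all counts. The untreated libraries of replicate 3 were counted on another gene annotation than the other 22, so comparisons with untreated cells used the 21651 identifiers that both hold, among them 52 members (all but Cks2). Pdgfra and Cspg4, OPC markers, were lower in OLs and Mbp, Mog and Enpp6, OL markers, were higher in both the untreated and the DTG-treated cultures, as their labels say, although Mbp was already at 104 to 336 CPM in OPCs. The marker lists for astrocytes (6 genes) and microglia (8 genes) had no named gene and were not checked. Of 6 neuron markers 3 could be named (Snap25, Map2 and Stmn2), and their values stand beside the stage comparison. All markers got their names through the same pairs, which hold only genes that the study listed as changed. Their stage differences are therefore descriptions.

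Mitotic RNA fell steeply between the stages. The summed level of the 52 members, in CPM (counts scaled to a fixed library total), was 4600 ± 963 (SD, n = 4) in OPCs left untreated, 4567 ± 1043 in those given DMSO and 4639 ± 1117 in those given DTG. In OLs the sums were 466 ± 117, 619 ± 151 and 498 ± 177 CPM in the same order. The lowest of the 12 OPC libraries, at 3443 CPM, stood above the highest of the 12 OL libraries, at 729 CPM. In these bulk libraries fewer dividing cells and less RNA per dividing cell cannot be told apart.

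**Figure D1:**
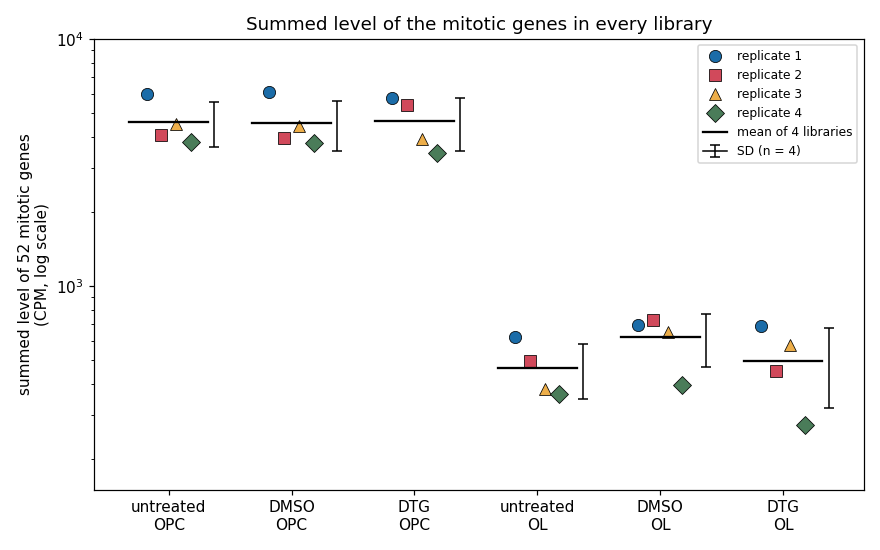
Summed level of 52 mitotic genes in CPM (log axis) in each library, by group, with the mean and SD of 4 libraries. The 12 OPC libraries lie between 3443 and 6081 CPM and the 12 OL libraries between 275 and 729 CPM, and replicate 1 is the highest in each OPC group.

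In untreated cultures, whose libraries the naming of the members did not use, 51 of the 52 members were called lower in OLs. A call is an adjusted p under 0.05 in edgeR's quasi-likelihood test with a log2 fold change beyond 1. Of all 12158 genes tested, 13.4% were called lower. The median log2 fold change of the members was -3.80, a 13.9-fold lower level, against -0.10 over all genes. In the DTG-treated cultures all 53 members were called lower (22.8% of all 13171 genes tested), with a median of -3.72, a 13.2-fold lower level. In DMSO cultures the median was -3.35 for the same 53 genes. Every member was lower in OLs in 4 of 4 litters in both comparisons. The groups did not overlap for 51 of 52 members in untreated and 53 of 53 in DTG-treated cultures (19.6% and 26.8% of all genes did not overlap in that direction). Both comparisons repeat the stage contrast that named the members under DMSO, in litters taken to be the same. The members' calls and direction in them were thus largely set beforehand.

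The 3 named neuron markers were lower in OLs as well, but a change in the study's lists was part of how they got their names. Snap25 and Stmn2 passed the call in untreated cultures and all 3 with DTG, with medians of -2.72 and -2.91 (13.4% and 22.8% of all genes were called lower). Their summed level was 143 to 440.4 CPM in 11 OPC libraries and 73.6 to 167 CPM in 11 OL libraries (those on 1 annotation), and none was at 0 in any of them. Most of that sum was Map2, at 111 to 406 CPM in OPCs and 66.5 to 163 CPM in OLs. Their part in the members' values was not tested.

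The exception in untreated cultures was Kif22, a chromosome-arm kinesin (log2 fold change -3.47 ± 1.36 (SE), adjusted p = 0.0707 in edgeR). Its levels were 268, 191, 0.648 and 198 CPM in untreated OPCs and 26.6, 19.3, 0 and 13.7 CPM in untreated OLs, replicates 1 to 4 in order. Both libraries near 0 are those of replicate 3, counted on the other annotation. Without replicate 3, Kif22 was called (-3.47 ± 0.26, adjusted p = 1.09e-05 in edgeR) and so were all 52 members, with a median of -3.50. With the litter as a replicate block it was called as well (-3.52, adjusted p = 2.61e-07 in edgeR).

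The cyclins and their partners are the core of the switch into mitosis. Cdk1 (ENSRNOG00000000632, chr20:20576377-20591549 in the Rnor_6.0 coordinates of the files) encodes the mitotic kinase itself and stood at 199.97, 175, 131 and 167 CPM in untreated OPCs and 18.4, 11.9, 7.78 and 9.87 CPM in untreated OLs, again in the order of replicates 1 to 4. With DTG its levels were 188, 150.5, 131 and 129 CPM in OPCs and 20.8, 11, 21.6 and 7.55 CPM in OLs. The lowest OPC library was thus several times above the highest OL library in each treatment, and OLs kept 7.08% of the OPC level untreated and 10.1% with DTG. Ccnb1 encodes cyclin B1, which binds CDK1 at the entry into mitosis, and it read 151, 103, 140.4 and 88.3 CPM in untreated OPCs against 10.8, 10.5, 7.29 and 5.39 CPM in OLs. Cdkn3, a phosphatase that acts on CDKs, went from 88.4, 85.7, 63.9 and 61.8 CPM to 6.31, 4.24, 3.96 and 4.02 CPM. The log2 fold changes of the 4 tested members of this group in untreated cultures lay between -4.18 (Ccna2, cyclin A2) and -3.82 (Cdk1), so they fell by similar amounts. Cks2, a small CDK-binding protein, could be tested only without the untreated libraries and fell by 3.18 on the log2 scale with DTG.

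Among the mitotic kinases the range was wide. Ttk (ENSRNOG00000029055, chr8:91368111-91405993), which encodes the checkpoint kinase MPS1, had the largest change of all members in both comparisons (-4.59 ± 0.44 untreated and -5.59 ± 0.49 with DTG, adjusted p = 7.33e-05 and 6.12e-06 in edgeR). It left 4.16% of the OPC level in untreated OLs and 2.07% in DTG-treated OLs. Its OL levels were 1.42, 0.951, 1.25 and 1.09 CPM untreated and 1.22, 1.18, 0.701 and 0.437 CPM with DTG, so these shares rest on few reads. Aurka (ENSRNOG00000004479, chr3:170364181-170378210), the centrosomal Aurora kinase, was at the other end of this group (-2.48 ± 0.26 and -2.24 ± 0.24) and kept 17.9% and 21.1% of its OPC level. Plk1, a kinase used from mitotic entry to cytokinesis, stood at 209.96, 142, 77.9 and 142 CPM in untreated OPCs and 23.4, 16.4, 13.7 and 9.75 CPM in untreated OLs. The same gene read 161, 87.8, 91.8 and 137 CPM in OPCs and 26.7, 15.4, 20.9 and 7.24 CPM in OLs with DTG. Its libraries did not overlap between stages in either treatment. Bub1b encodes the checkpoint protein BUBR1, and its levels were 136, 109, 94.3 and 75.5 CPM in untreated OPCs and 12.2, 6.31, 3.82 and 7.29 CPM in untreated OLs. The medians of the 7 kinases were -3.82 untreated and -3.92 with DTG, close to those of all members.

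The chromosomal passenger complex, which corrects faulty attachments and later marks the cleavage plane, fell somewhat less. Its 4 genes had medians of -3.29 untreated and -3.07 with DTG. Aurkb, its kinase, fell most in both (-3.97 ± 0.33 and -3.45 ± 0.33). Aurkb went from 177, 129.9, 73.2 and 133 CPM in untreated OPCs to 10.5, 10.3, 5.97 and 6.2 CPM in untreated OLs, and from 154, 89.8, 90.7 and 106 CPM to 14, 11, 11.5 and 4.31 CPM with DTG. Birc5, which encodes survivin, changed by -3.51 ± 0.33 and -3.18 ± 0.34.

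The 8 kinetochore genes had medians of -3.92 untreated and -4.17 with DTG. Ndc80, the microtubule-binding subunit of the outer kinetochore, stood at 61.2, 29.8, 85 and 30 CPM in untreated OPCs and 5.74, 3.11, 2.5 and 1.15 CPM in untreated OLs. With DTG it stood at 68.5, 86, 58.6 and 28.7 CPM in OPCs and 2.75, 2.37, 2.18 and 1.81 CPM in OLs. The stages did not overlap in either treatment. Cenpf, a large kinetochore protein of late interphase and mitosis, was among the 2 members with the largest change in untreated cultures (-4.58 ± 0.64, adjusted p = 0.000585 in edgeR).

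Condensin and the other chromosome structure genes, 8 in all, ranged widely and had medians of -2.95 untreated, the nearest to 0 of the role groups, and -3.54 with DTG. Mki67 (ENSRNOG00000028137, chr1:207993895-208020454), the proliferation marker that coats mitotic chromosomes, stood at 150.3, 44.8, 194 and 52.3 CPM in untreated OPCs and 7.3, 9.34, 3.89 and 4.99 CPM in untreated OLs. With DTG the levels were 201, 237, 104 and 76.4 CPM in OPCs and 5.12, 4.91, 7.4 and 3.93 CPM in OLs. OLs kept 5.69% of the OPC level untreated and 3.42% with DTG. Top2a, which encodes the topoisomerase that untangles sister chromatids, stood at 274, 125, 343 and 139 CPM and 18.5, 22.1, 8.47 and 8.6 CPM in untreated OPCs and OLs. Ncapg, a condensin I subunit of low level, read 14.3, 6.47, 30.7 and 9.42 CPM and 1.35, 3.46, 1.81 and 0.9752 CPM. Ncapd2 (ENSRNOG00000055300, chr4:157683077-157704596), another condensin I subunit, changed least of all members: its levels were 313, 252, 153 and 214 CPM in untreated OPCs and 87.7, 82, 85.5 and 61.4 CPM in untreated OLs. With DTG they were 245, 174, 168 and 212 CPM and 92.4, 78.4, 73.4 and 44.8 CPM. These stages did not overlap either, but OLs kept 33.8% and 36% of the OPC level (-1.57 ± 0.23 untreated, adjusted p = 0.000856, and -1.47 ± 0.22 with DTG, adjusted p = 0.000215, both in edgeR). The 95% intervals of Ncapd2, -2.09 to -1.04 and -1.96 to -0.99, lay wholly above those of Ttk, -5.58 to -3.59 and -6.67 to -4.52.

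Spindle, kinesin and cytokinesis genes fell together with the rest. Tpx2, which activates Aurora A on the spindle, stood at 267, 127, 211 and 146 CPM in untreated OPCs and 21, 15.1, 9.79 and 12.8 CPM in untreated OLs. Kif11, the kinesin that pushes the spindle poles apart, stood at 81.9, 44.9, 103 and 42.7 CPM and 5.31, 5.02, 2.71 and 2.41 CPM. Anln, the contractile ring protein anillin, stood at 37.5, 20.5, 40.7 and 13.8 CPM and 3.33, 2.42, 1.6 and 1.03 CPM. Every OPC library of these 3 genes lay above every OL library. The group medians in untreated cultures were -4.00 for 5 spindle and midzone genes, -3.81 for 9 kinesins and -3.77 for 3 cytokinesis genes. With DTG they were -4.20, -4.20 and -4.49.

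The genes that end mitosis had medians nearer to 0 than that of all members. Cdc20, the APC/C activator that the checkpoint holds back, stood at 351, 254, 142 and 274 CPM in untreated OPCs and 45.3, 31.7, 29.2 and 20.5 CPM in untreated OLs. Ube2c, the ubiquitin-conjugating enzyme of the APC/C, stood at 105, 71.3, 49.6 and 77.2 CPM and 9.78, 7.09, 3.96 and 3.5 CPM. Neither gene overlapped between stages. With Espl1, which encodes separase, this group of 3 had medians of -3.26 untreated and -2.84 with DTG, and OLs kept 12.3% of the OPC level of Cdc20 untreated and 19.4% with DTG.

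**Figure D2:**
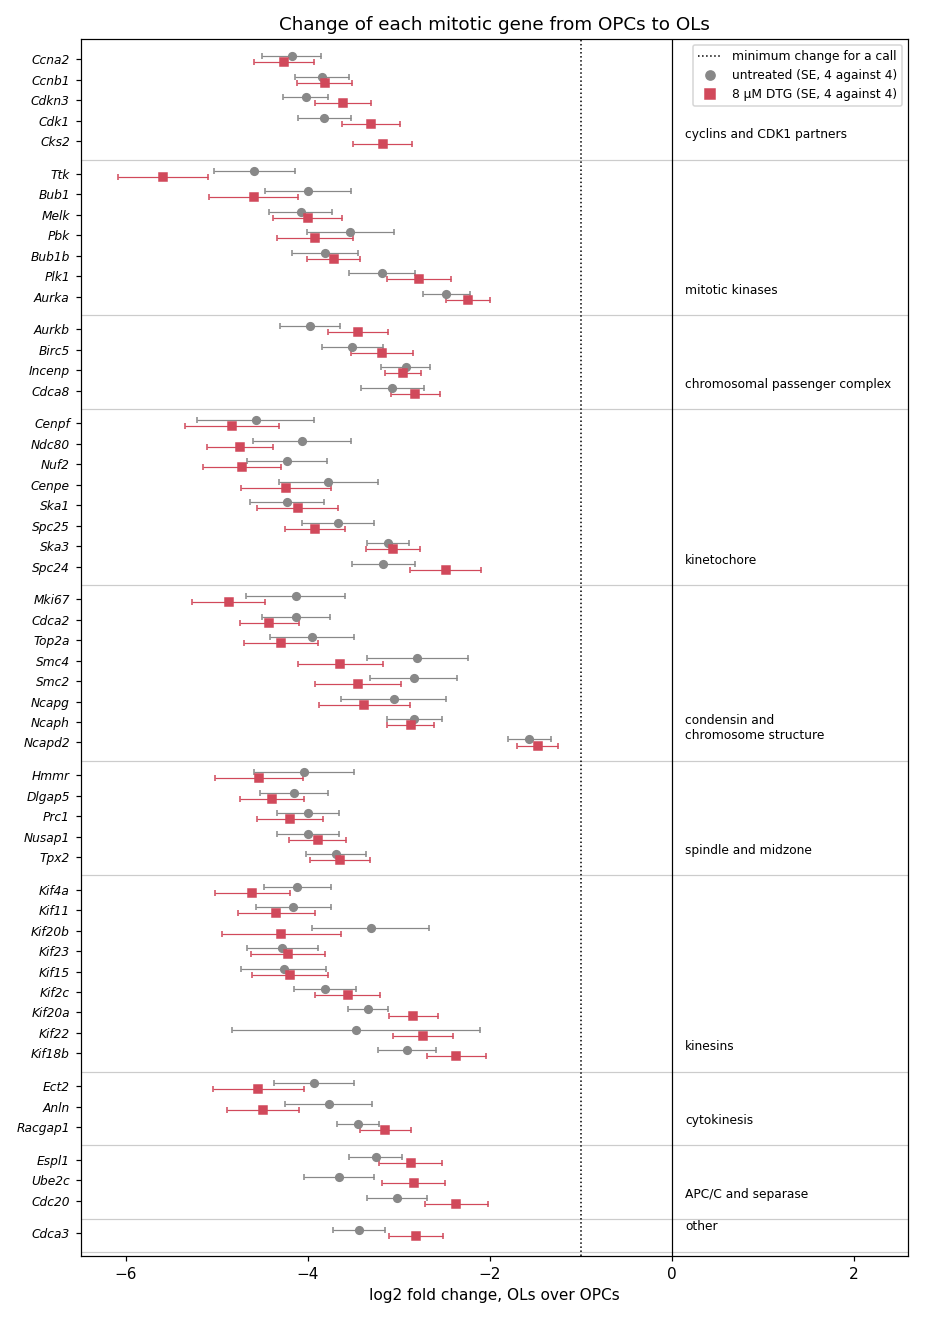
Log2 fold change of each mitotic gene from OPCs to OLs with its standard error, in untreated (grey) and DTG-treated (red) cultures, 4 libraries against 4, grouped by role. All points lie left of the dotted line at -1, from -5.59 for Ttk with DTG to -1.47 for Ncapd2 with DTG, and the wide grey bar is Kif22.

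The order of the genes by size of change was much alike in both treatments (Spearman's rho 0.81 over 52 genes, a description only, since the genes share libraries and litters). On the TPM scale, which scales counts to a fixed total as CPM does but divides by exonic length and so allows genes to be compared, the median level over 11 OPC libraries ran from 2.25 TPM for Kif20b, a kinesin of late mitosis, to 203 TPM for Cdk1. Cdc20 followed Cdk1 at 199 TPM, with overlapping libraries (169 to 318 TPM for Cdk1 and 146 to 323 TPM for Cdc20). In OLs Cdc20 had the highest median at 34.5 TPM, followed by Ncapd2 at 28.9 TPM and Cdk1 at 20.3 TPM. Ncapd2 had been number 14 in OPCs, and Ttk went from number 45 to number 50. A median above 1 TPM remained for 42 of the 53 genes in OLs, and no member was at 0 counts in any of the 22 libraries. The levels in OPCs and OLs had a rho of 0.93 over the 53 genes.

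**Figure D3:**
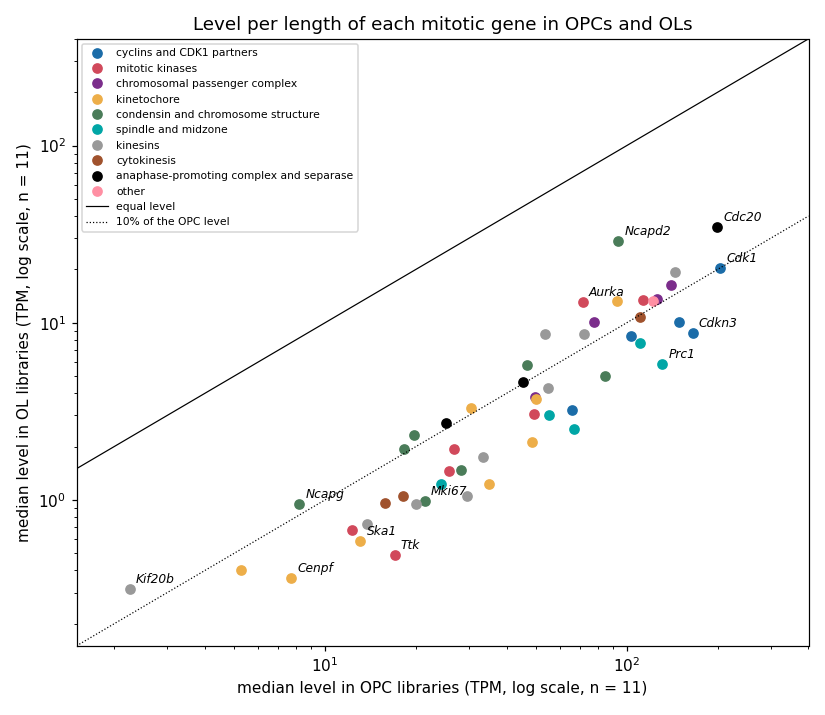
Median level per length (TPM, log axes) of each of the 53 mitotic genes in 11 OPC libraries and 11 OL libraries, coloured by role, with lines for equal levels and for 10% of the OPC level. Most points follow the 10% line, while Ncapd2 at 93.6 TPM in OPCs and 28.9 TPM in OLs stands above it and Ttk at 17 and 0.489 TPM below it.

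Other genes of the division pathway were taken from lists of 91 symbols, of which 53 could be named through the same pairs. Those pairs cover only genes that the study listed as changed by stage under DMSO or by DTG in OLs, so unlisted genes are missing. By the call rule 52 of the 53 were lower in OLs with DMSO, so the counts that follow are descriptions. Of these genes, 48 of 52 tested were called lower in untreated OLs (13.4% of all genes) and 52 of 53 in DTG-treated OLs (22.8% of all genes). None was called higher in either, which the naming largely set beforehand. All 5 named checkpoint genes and all 16 inner kinetochore genes, which build and hold the centromere, were called lower in both, with medians of -3.66 and -3.46 untreated. The 10 cohesin genes, which hold sister chromatids together, changed less (median -2.08 untreated, 9 called), as did the 11 genes of mitotic entry and its transcription factors (median -2.64, 10 called). Cdkn1a, the CDK inhibitor p21, was not called in either (-0.53 untreated and 0.70 with DTG).

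Promoter letters, which the list did not use, were counted as a description of the members. Genes of this phase are known for the cell cycle homology element (CHR), bound by the DREAM and MuvB complexes, often next to CCAAT boxes bound by NF-Y. RefSeq promoters of the GRCr8 assembly, 250 bases before to 50 after the annotated start, matched 45 of the 53 members by symbol with 47 promoters. The members without an entry were Aurkb, Ccna2, Cdca2, Incenp, Pbk, Racgap1, Tpx2 and Ube2c. The CHR, searched as TTTGAA or TTCGAA on both strands, was in 68.1% of the members' promoters and in 19.7% of all 33469 promoters. CCAAT on either strand was in 72.3% against 37.5%, both motifs in 57.4% against 7.95%, and GGCGG in 91.5% against 46.8%. The median GC content was 59.7% in the members' promoters and 51.7% in all. The E2F-type letters TTTCCCGC, TTTGGCGC, TTTCGCGC and TTTGCCGC were in 2.13% against 2.14%. A CHR match started within 120 bases before the start or later in 30 of the 31 members that had one.

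The 100 bases before the annotated start are shown for 9 members, to set the CHR beside the CCAAT boxes in the cyclin partner, kinetochore, chromosome structure, APC/C and kinesin groups. Coordinates are those of GRCr8, the letters run 5′ to 3′ along the gene, and capitals mark CHR and CCAAT matches on either strand. Ncapd2, which changed least, carries both, and Ccnb1 carries no CHR match in its window, which says only that these letters are not in it.
Cdk1 (chr20:19265193-19265292, plus strand): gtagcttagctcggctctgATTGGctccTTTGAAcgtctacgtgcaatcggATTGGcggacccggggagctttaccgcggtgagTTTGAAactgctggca
Cks2 (chr17:13727520-13727619, minus strand): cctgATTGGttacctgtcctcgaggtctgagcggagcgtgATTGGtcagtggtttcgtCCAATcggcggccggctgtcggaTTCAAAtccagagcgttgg
Ccnb1 (chr2:33655226-33655325, minus strand): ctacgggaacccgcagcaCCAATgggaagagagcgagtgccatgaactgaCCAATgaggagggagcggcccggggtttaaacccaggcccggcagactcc
Spc25 (chr3:74396719-74396818, minus strand): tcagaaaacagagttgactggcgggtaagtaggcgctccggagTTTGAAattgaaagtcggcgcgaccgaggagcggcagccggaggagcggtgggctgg
Cdc20 (chr5:137255800-137255899, minus strand): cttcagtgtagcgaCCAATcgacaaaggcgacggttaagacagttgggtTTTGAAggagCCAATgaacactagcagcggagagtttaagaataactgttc
Top2a (chr10:84473094-84473193, minus strand): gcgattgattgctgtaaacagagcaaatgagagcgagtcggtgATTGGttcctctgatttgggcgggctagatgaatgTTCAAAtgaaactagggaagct
Ncapg (chr14:69645446-69645545, minus strand): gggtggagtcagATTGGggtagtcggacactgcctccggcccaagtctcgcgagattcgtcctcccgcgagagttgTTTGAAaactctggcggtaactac
Ncapd2 (chr4:159677939-159678038, minus strand): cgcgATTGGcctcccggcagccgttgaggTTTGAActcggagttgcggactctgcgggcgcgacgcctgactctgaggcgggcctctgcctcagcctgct
Kif23 (chr8:71320585-71320684, minus strand): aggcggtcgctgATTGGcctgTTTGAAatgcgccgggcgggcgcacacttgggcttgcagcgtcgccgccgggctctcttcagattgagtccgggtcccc

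The median stage change in untreated cultures was -3.88 for the 30 tested members with a CHR match and -3.61 for the 14 without, with ranges of -4.59 to -1.57 and -4.16 to -2.48 that overlap. With DTG the medians were -3.92 for 31 members and -3.31 for 14. These are descriptions of the genes, not a test of the element.

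**Figure D4:**
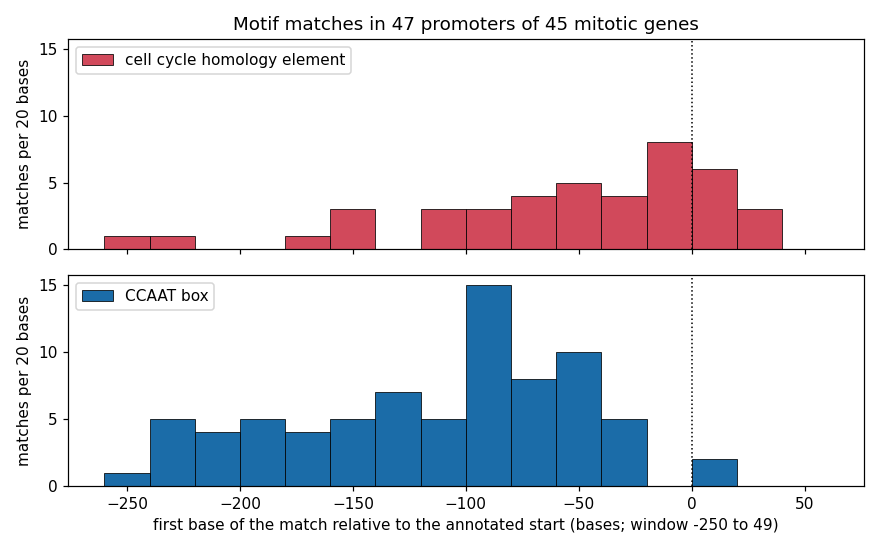
Matches of the CHR (upper panel) and CCAAT (lower panel) in 47 promoters of 45 mitotic genes, counted per 20 bases by distance of the first matched base from the annotated start. The median position is -38.5 for the CHR matches, which reach 34 bases past the start, and -97 for the CCAAT matches, which lie further ahead of it.

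In OPCs, 24 h of DTG left none of the 53 members called against DMSO, and none had an unadjusted p under 0.05 (edgeR; DESeq2 gave 0 called and 0 unadjusted). No gene of all 13270 was called (0.0%), and 0.52% had an unadjusted p under 0.05. The median log2 fold change of the members was 0.12, with 33 above 0. The largest were 0.66 ± 0.54 for Kif20b (95% interval -0.53 to 1.85) and 0.65 ± 0.48 for Ncapg (-0.41 to 1.72), the smallest 0.00 for Bub1b (-0.59 to 0.59) and -0.01 for Ska3 (-0.56 to 0.54), a kinetochore gene. The intervals of Kif20b and Ncapg still hold changes of more than 1 on the log2 scale, so this unpaired fit of 4 libraries against 4 does not exclude changes of that size.

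The 4 litters did not give 1 picture. The median log2 ratio of DTG to DMSO over the 53 members was -0.05, 0.73, -0.14 and 0.01 in replicates 1 to 4, with 21, 37, 9 and 27 members higher with DTG. The deviations of the members from their group means correlated between the DTG and DMSO libraries of a litter at 0.127, -0.683, 0.483 and 0.928, so in replicate 2 those libraries did not deviate together. Mki67 stood at 184, 75.7, 162 and 53.6 CPM with DMSO and 201, 237, 104 and 76.4 CPM with DTG, so replicate 2 went from among the lowest to the highest. Kif20b shows the same, with 11.9, 5.59, 13 and 4.19 CPM against 14.3, 27.6, 8.9 and 4.5 CPM. In replicate 2 the members also split, from 2.28 for Kif20b and Cenpf down to -0.87 for Spc24, an outer kinetochore subunit, and -0.68 for Plk1. Across the 53 members the ratio moved with exonic length by a rho of 0.31, 0.51, -0.33 and 0.42 in replicates 1 to 4, and the fitted fold change over all litters by a rho of 0.52. Over all 12573 genes of at least 1 CPM the rho was 0.12, 0.24, -0.16 and 0.39. The upper tercile of length had a median of 0.22 and the lower of -0.26 in replicate 2, and 0.19 and -0.20 in replicate 4. What part of the members' values moves with length was not tested. With the litter as a block and replicate 2 left out, an alternative chosen after seeing the data, the members' median was -0.07, with 41 of 53 below 0 and Kif20b at -0.08.

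Some members were lower with DTG in each OPC litter. These were Aurka, Plk1, Spc24, Birc5, Cdca3, Cdca8, Ncapd2, Cdkn3 and Racgap1, 9 of 53, while 0 were higher in each. Of all genes 11.3% were lower and 6.86% higher in each litter. Racgap1 was barely lower in replicate 3 (log2 ratio -0.006). With only the DMSO and DTG OPC libraries scaled together, 8 members were lower in each, without Racgap1. Aurka stood at 117, 87.2, 64.5 and 108 CPM with DMSO and 98.7, 67.1, 60.4 and 80.7 CPM with DTG, a small shift within groups that overlap (-0.29 ± 0.23, adjusted p = 0.907 in edgeR). With the litter as a block 3 members had an unadjusted p under 0.05 (6.56% of all genes did), Spc24, Aurka and Birc5, at log2 fold changes of -0.50, -0.28 and -0.28, and none was called. In OPCs too the direction depends on the scaling. On the spike-in scale 52 of the 53 members had a log2 fold change above 0, with a median of 0.39 against 0.38 over all genes.

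**Figure D5:**
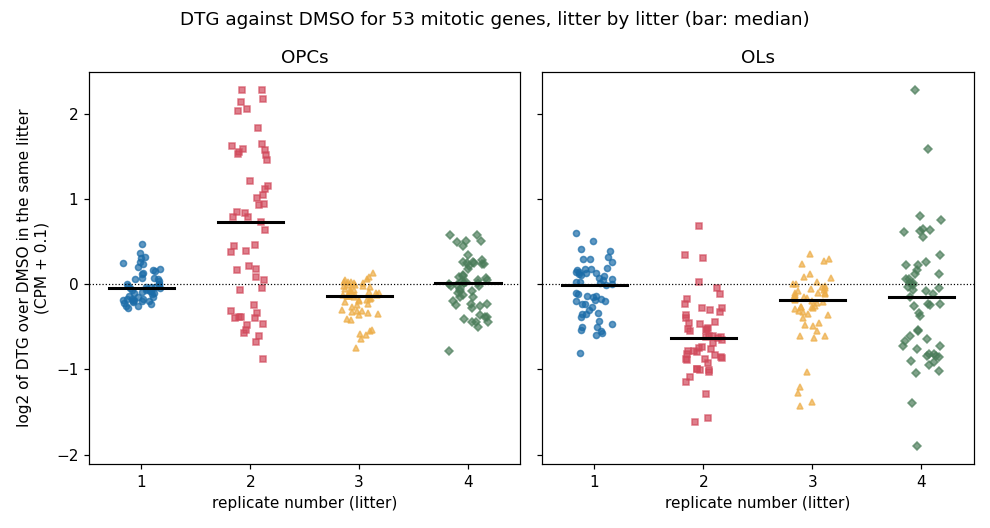
Log2 ratio of DTG to DMSO in the same litter for each of the 53 mitotic genes, with the median as a bar, in OPCs (left) and OLs (right). In OPCs replicate 2 is spread from -0.87 to 2.28 with a median of 0.73 while the other 3 litters centre near 0, and in OLs replicate 2 has the lowest median at -0.63.

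In OLs, after DTG through both media, none of the 52 tested members was called against DMSO (edgeR, and 0 with DESeq2), where 0.582% of all 12710 genes were. An unadjusted p under 0.05 was reached by 4 members in edgeR and 3 in DESeq2 (12.9% of all genes in edgeR): Kif20b, Ndc80, Aurka and Cdca8, all lower with DTG. That count ran from 1 to 9 in edgeR when 1 library was left out. It rose to 9 when the library left out was DTG replicate 1 and to 8 for DMSO replicate 4, and it was 2 for DMSO replicate 3 and 1 for DMSO replicate 1, DMSO replicate 2 or DTG replicate 4. Of the 52 members 47 had a log2 fold change below 0, with a median of -0.30 against 0.01 over all genes. The direction depends on the scaling: on the spike-in scale the members' median was 0.28 and that of all genes 0.59, so the members stayed below the median gene but not below DMSO.

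Aurka had the smallest unadjusted p of the members (0.00742). Its OL levels were 28.7, 27.3, 24.8 and 21.7 CPM with DMSO and 20.2, 13.7, 20.2 and 11.2 CPM with DTG, lower in 4 of 4 litters and with no overlap, the only member of which that is true (8.28% of all genes did not overlap). The log2 fold change was -0.66 ± 0.21 (95% interval -1.11 to -0.21, adjusted p = 0.172 in edgeR). With the litter as a block it was -0.68 ± 0.18 with an adjusted p of 0.0219 in edgeR, below the minimum change for a call, and 5.08% of all genes had such an adjusted p. The untreated OLs of Aurka, at 20.1, 16, 16.2 and 16.2 CPM, lay with the DTG libraries: DTG against untreated gave -0.07 ± 0.22, and DMSO against untreated 0.54 ± 0.16 (adjusted p = 0.645 in edgeR).

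Ndc80 stood at 4.07, 4.08, 6.03 and 1.82 CPM with DMSO and 2.75, 2.37, 2.18 and 1.81 CPM with DTG in OLs (-0.82 ± 0.33, interval -1.54 to -0.10, adjusted p = 0.318 in edgeR). Kif20b stood at 1.14, 1.43, 1.59 and 1.22 CPM and 0.611, 0.819, 1.25 and 0.25 CPM (-0.92 ± 0.41, interval -1.81 to -0.04, adjusted p = 0.366). Both were lower in 4 of 4 litters, both groups overlap, and Kif20b at this level rests on few reads. Cdca8, the passenger complex subunit borealin, read 27, 26.8, 17.8 and 17 CPM with DMSO and 21.3, 13.4, 15.4 and 9.36 CPM with DTG (-0.59 ± 0.25, adjusted p = 0.343). Mki67 read 7.79, 6.49, 8.2 and 4.64 CPM and 5.12, 4.91, 7.4 and 3.93 CPM and Top2a 23.4, 22, 19.8 and 8.29 CPM and 20.3, 12.5, 17.6 and 7.43 CPM. These 2 markers of dividing cells were lower in each litter by amounts within the spread between litters (-0.35 ± 0.26 and -0.36 ± 0.33). Cdc20 had 49.7, 62.3, 56.7 and 30.6 CPM with DMSO and 53.7, 33.7, 52.9 and 15 CPM with DTG, higher with DTG in replicate 1 alone. Kif18b and Kif15, kinesins, showed the smallest differences (both 0.01, intervals -0.64 to 0.66 and -0.77 to 0.79).

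In all, 13 of the 53 members were lower with DTG in each OL litter and 1, Ska1, was higher in each, where 13.1% and 12.4% of all genes were. Ska1, a kinetochore gene, had too few counts for the fit. By litter the median log2 ratios were -0.01, -0.63, -0.19 and -0.15. With the litter as a block 14 of the 52 members had an unadjusted p under 0.05 against 4 without it, and 18.4% of all genes did. By role, the passenger complex (median -0.53 over 4 genes) and the kinases (-0.47 over 7) lay lowest and the cyclins and their partners (-0.10 over 5) nearest to 0. Of the other pathway genes none of 49 tested was called lower and 1 was called higher, Cdkn1a (1.00 in edgeR). In OPCs none of 53 was called. Of the 3 named OL markers Mog, a myelin surface protein, was called lower with DTG (-1.01 in edgeR). Mog stood at 34.3 to 51.9 CPM with DMSO and 20.4 to 26.6 CPM with DTG. Mbp and Enpp6 were not called but read lower with DTG as well, and the median of the 3 markers was -1.09. Mbp stood at 4293 to 11395 CPM with DMSO and 1701 to 4330 CPM with DTG. Enpp6 stood at 48.4 to 121.7 CPM and 23.5 to 61.7 CPM. Cdkn1a and the 3 OL markers got their symbols through pairs that hold only genes listed as changed, by stage under DMSO or by DTG in OLs. A change with DTG may thus have been part of how they were named. Their calls and differences are therefore descriptions, not a test apart from the naming. The part of such shifts in the members' values was not tested.

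In OLs the members' estimates with DMSO lay mostly above the untreated ones, and the same DMSO libraries enter both contrasts. DMSO against untreated gave a median of 0.33 over 51 members with 47 above 0, none called (0.0% of all genes) and 5 with an unadjusted p under 0.05 in edgeR (7.49% of all genes) and 7 in DESeq2. The edgeR count ran from 1 to 13 when 1 library was left out, with 13 for untreated replicate 1 or DMSO replicate 4, 1 for DMSO replicate 1 or 2, and 2 for DMSO replicate 3 or untreated replicate 3 or 4. DTG against untreated gave 0.03 over 50 members, none called (0.277% of all genes), with 0 at an unadjusted p under 0.05 in edgeR and DESeq2. Without replicate 3, whose untreated libraries were counted on another annotation, the medians were 0.19 and -0.11. In OPCs the medians against untreated were -0.02 for DMSO and 0.11 for DTG over 52 members, with none called and 0 at an unadjusted p under 0.05 in edgeR and DESeq2 (0.599% and 1.5% of all genes in edgeR). Without replicate 3 those medians were 0.01 and 0.25, with none called and 0 and 7 members at an unadjusted p under 0.05 in edgeR (0.0988% and 7.37% of all genes), and for DTG the count was 8 without the untreated OPC library of replicate 3 alone.

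The fall from OPCs to OLs with DTG was also set against that with DMSO. The DMSO fall is the contrast through which the members were named, so the difference of the log2 fold changes (DTG minus DMSO, edgeR, 16 libraries) is a description with no test. It was below 0, a steeper fall with DTG, for 48 of the 53 members, with a median of -0.37 against 0.04 over all genes. It was largest for Kif20b (-1.55 ± 0.92) and Ndc80 (-1.11 ± 0.60) and smallest for Ncapd2 (-0.01) and Cdc20 (-0.03). The difference had a rho of -0.46 with exonic length over the 53 members. With 1 library left out the median lay between -0.17 (DTG replicate 4 of the OLs) and -0.63 (DMSO replicate 4 of the OLs). Among the OPC libraries it was -0.24 when DTG replicate 2 was left out, -0.25 for DTG replicate 1 and -0.57 for DMSO replicate 1. It was -0.58 for DTG replicate 1 of the OLs. By the members' medians the fall with DTG (-3.72) was steeper than with DMSO (-3.35) but not than in untreated cultures (-3.80 over 52 members). On the spike-in scale these medians were -5.03 with DTG and -4.93 with DMSO.

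The summed level of the OPCs spanned a wider range over litters than over the 3 treatment means given above. The spread over 4 litters of a single member, as the median coefficient of variation, was between 31.5% and 40.6% in the 6 groups. Replicate 1 had the highest OPC sum in each treatment (5980, 6081 and 5762 CPM) and replicate 4 the lowest (3814, 3803 and 3443 CPM). Replicate 4 was also lowest in OLs, with 365, 397 and 275 CPM, and was the lowest library for 51 of 52 members in DMSO-treated and 47 in DTG-treated OLs. Replicate 1 was the highest OPC library for 36 of the 52 members with DMSO and for 27 with DTG, where replicate 2 was the highest for 25.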

How the data were processed

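RNA-seq was done on primary rat OPCs and OLs, 24 libraries in 6 groups of 4. The authors trimmed the reads, aligned them with STAR (2.5.2b) and counted uniquely mapped reads on exons with featureCounts of Subread (1.5.2), after bcl2fastq (2.20), per the labels and the study's methods. The deposited values are raw counts per gene, with the counts of 92 ERCC spike-in transcripts in the same column. The labels name Rnor_6.0 for all libraries, but the untreated libraries of replicate 3 carry other gene models (the last gene of chromosome 1 ends at base 260398790, against 282724300 in the other 22), and exonic lengths of members in one annotation were 0.34 to 2.30 times those in the other.

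Genes were filtered with filterByExpr, scaled by TMM and tested with edgeR (4.0.16, R 4.3.3) quasi-likelihood, with Benjamini-Hochberg adjustment over all genes tested. A call needed an adjusted p under 0.05 and a log2 fold change beyond 1. The fits were tested on simulated data. CPM per library were scaled by TMM over all 24 libraries on the shared identifiers, TPM used the 22 libraries on 1 annotation, and log2 ratios within litters used CPM + 0.1. DESeq2 (1.42.0), spike-in scaling, other filters, the litter block and leaving out each library were alternatives. Depth of 13241279 to 18499994 gene counts leaves members under about 1 CPM in OLs on few reads.

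Members, role groups and the other pathway and marker lists were chosen with earlier results of these data known. Genes named in full were 15 picked by role, those with the 2 largest and 2 smallest changes in a comparison, and any member on the other side of the threshold from the rest. Others (Aurka, Cdca8 and Spc24 in the DTG comparisons among them) were named after their values were seen.

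Replicates are independent litters in the study's methods. Neither these nor the labels say that a number marks the same litter in every group, so that pairing was assumed. The deviations from the group means of same-numbered DTG and DMSO libraries correlated over all genes at 0.641, -0.07, 0.516 and 0.789 in OPCs and 0.361, 0.364, 0.304 and 0.0328 in OLs for replicates 1 to 4. Between OPCs and OLs of the same number the values were 0.299, -0.0344, 0.083 and -0.288 with DTG and 0.348, 0.033, 0.0879 and 0.439 with DMSO. By the dates in the names of the libraries, replicates 2 and 3 come from 1 day. The authors' own fold changes and p-values were not used.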

Additional observations from a re-analysis of the deposited data

Results flagged for a closer look

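In groups of 4 libraries, a library was picked out when its gap to the nearest other, over the group's range, exceeded Dixon's 95% critical value. Of 96 such groups (the summed level and 15 genes in 6 groups), 4 had one, where chance alone picks about 1 in 20. All 3 of these in DMSO-treated OLs were replicate 4, which was low: Cdk1 stood at 11 CPM against 19.2 to 20.5 in the other 3 libraries, Kif11 at 1.98 against 5.86 to 6.36, and Tpx2 at 10.8 against 22.8 to 24.4. Cdkn3 was high in replicate 1 of the untreated OLs, at 6.31 CPM against 3.96 to 4.24.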

How the results depend on the processing

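Kif22 in the untreated stage comparison was called with the replicate block, with spike-in scaling, and without replicate 3 (both libraries, or the OPC library alone). A call appeared elsewhere: with the replicate block and no minimum fold change, an alternative chosen after seeing the data, 1 member (Aurka) was called in OLs with DTG against DMSO instead of 0. In the stage comparisons 51 to 52 of 52 members were called in untreated and 53 of 53 in DTG-treated cultures in every setting. The replicate block otherwise left the members' calls at 0 in every treatment comparison and at 52 (untreated) and 53 (DTG) in the stage comparisons. Leaving out each library in turn left 0 called in each treatment comparison. The members' median then ran from -0.02 to 0.32 in OPCs and from -0.52 to -0.09 in OLs for DTG against DMSO, the latter nearest to 0 without replicate 4 of the DTG-treated OLs.

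In the stage comparisons spike-in scaling moved the medians most. It gave -4.75 untreated, -5.03 with DTG and -4.93 with DMSO for OL against OPC, with all-gene medians of -1.0, -1.36 and -1.52. It also turned DTG against DMSO in OLs to 0.28, DMSO against untreated in OLs to -0.12, and for single genes in OPCs Ska3 to 0.31 and Aurka to 0.10. It moved the members' median for DTG against DMSO in OPCs from 0.12 to 0.39. The CHR share was 51.1% of the members' promoters and 17.4% of all promoters when only the 250 bases before the start were searched.

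Some genes changed sign. In OPCs Bub1b was -0.002 with DESeq2 size factors, -0.001 with no filter, -0.057 with the replicate block and without replicate 2, and from -0.164 to 0.233 when 1 library was left out. Kif20b, the largest estimate in OPCs at 0.66, was -0.078 with the block and without replicate 2. Ska3 was 0.007 with the replicate block, with or without a minimum fold change, and from -0.145 to 0.231 when 1 library was left out. In OLs Kif18b was -0.041 with the block and from -0.176 to 0.271 when 1 library was left out, and Kif15 was from -0.193 to 0.233. The cause of these shifts was not tested.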
